A study of Mus musculus with 6 samples.

Results

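The genes described here are 10 genes of the NRF2 pathway, chosen by name: Nfe2l2, Keap1, Slc7a11, Gclc, Gclm, Gsr, Txnrd1, Srxn1, Nqo1 and Hmox1. All 10 were found among the 24935 genes of the deposited table, and all 10 were among the 17778 genes that had a mean of at least 10 normalized reads and were tested. The values come from RNA of the left hippocampus of C57BL/6 mice at postnatal day 14. The 3 Air mice had been kept in room air, and the 3 Hyperoxia mice in 85% oxygen at normal pressure from postnatal day 2 to 14. Pups of both groups were housed with their dams, so the dams were exposed too, and no allele or drug separated the groups. Sources used here do not give the sex or litter of each mouse. Each library is named by the number in its column heading, which is not an animal number. Air and hyperoxia below mean the libraries so headed. The direction of every difference rests on these headings and is uncertain, because the signs in the authors' own deposited comparison run opposite to them, Gclc, Keap1, Slc7a11, Dpp3 and Atf4 included. Which of them is right was not settled here. If the headings are swapped, each rise below is a fall and each fall a rise, and the sizes, errors and p-values stand.

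NRF2, the product of Nfe2l2, is a transcription factor that pairs with small MAF proteins on antioxidant response elements. KEAP1 holds it in the cytoplasm and hands it to a CUL3 ubiquitin ligase for breakdown, until oxidants or electrophiles modify cysteines of KEAP1. Its targets supply glutathione, regenerate thioredoxin and peroxiredoxins, and clear quinones and heme, and in the brain this programme is best known from astrocytes.

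Of the 10 genes, Slc7a11 was higher in hyperoxia, Gclc and Keap1 were lower, and the other 7 did not pass the test. Slc7a11 rose 1.64-fold, and the means of Gclc and Keap1 in hyperoxia were 0.7 and 0.829 of those in air. The calls for Slc7a11 and Gclc held with any 1 library left out, and that for Keap1 did not. The test was limma on log2 of the normalized count plus 1, and p-values were adjusted across every tested gene (Benjamini-Hochberg), with a threshold of 0.05. Among all genes tested, 30.5% passed in either direction, 14.9% as higher and 15.6% as lower in hyperoxia. The count of 3 of 10 members is therefore close to the share of all genes. The median log2 difference was 0.01 over the members and -0.01 over all genes tested. The summed normalized count of the 10 genes was 13221, 13540 and 13110 across the air mice, against 12784, 12995 and 12769 across the hyperoxia mice. Summed over all 24935 genes, the count was 36490000, 35970000 and 35908000 in air and 33631000, 34399000 and 33816000 in hyperoxia. That sum was also lower without overlap, so a lower sum was not particular to the members.

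Promoter sequence from RefSeq (GRCm38.p6) was at hand for 7 of the 10 genes, and Gclc, Hmox1 and Gsr had no entry. The 250 bases before the start are printed for 4 of them: Slc7a11 and Keap1, which passed the test in opposite directions, and Gclm and Srxn1, which did not pass and hold a motif of the NRF2 kind. These are chr3:50443614-50443863, minus strand, chr9:21239333-21239582, minus strand, chr3:122245307-122245556, plus strand and chr2:152105274-152105523, plus strand. Each reads 5′ to 3′ on the strand of the gene, and capitals mark a match to one of the motifs named after them.
Slc7a11: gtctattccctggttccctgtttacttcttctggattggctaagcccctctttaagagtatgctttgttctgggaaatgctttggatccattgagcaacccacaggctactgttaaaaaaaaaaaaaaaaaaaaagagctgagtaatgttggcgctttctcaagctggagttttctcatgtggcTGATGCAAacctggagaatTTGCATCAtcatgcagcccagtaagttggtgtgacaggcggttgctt
Keap1: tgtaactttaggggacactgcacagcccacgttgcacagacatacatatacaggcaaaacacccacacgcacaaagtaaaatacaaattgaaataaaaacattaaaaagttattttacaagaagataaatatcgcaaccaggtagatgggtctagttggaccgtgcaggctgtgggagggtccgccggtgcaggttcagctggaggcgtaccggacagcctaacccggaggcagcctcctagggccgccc
Gclm: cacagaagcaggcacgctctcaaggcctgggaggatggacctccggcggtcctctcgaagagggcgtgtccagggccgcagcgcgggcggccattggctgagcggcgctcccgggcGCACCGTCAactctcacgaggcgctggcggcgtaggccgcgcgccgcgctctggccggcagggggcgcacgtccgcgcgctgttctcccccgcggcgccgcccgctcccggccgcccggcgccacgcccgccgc
Srxn1: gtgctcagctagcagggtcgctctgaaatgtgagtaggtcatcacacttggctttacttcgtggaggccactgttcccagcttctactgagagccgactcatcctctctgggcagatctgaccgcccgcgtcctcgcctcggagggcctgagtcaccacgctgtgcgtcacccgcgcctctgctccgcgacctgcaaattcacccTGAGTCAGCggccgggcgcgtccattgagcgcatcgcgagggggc

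The motifs were chosen after the values were seen and were searched on both strands. They were the antioxidant response element core TGACNNNGC, the related site TGANTCAGC bound by NF-E2 type factors, and TGATGCAA, the core of the amino acid response element read by ATF4. The first pair overlap, since one run of letters can meet both. TGACNNNGC was found in 10.2%, TGANTCAGC in 1.02% and TGATGCAA in 0.791% of 32851 RefSeq windows of this length. The Slc7a11 window held TGATGCAA once on each strand, beginning 66 and 47 bases before the start, and 2 of the 32851 windows, this one included, held it more than once. It held neither of the other motifs. The Gclm window held TGACNNNGC on the minus strand 134 bases before the start, and the Srxn1 window held TGANTCAGC 45 bases before the start. Nfe2l2 itself had a match to TGACNNNGC 240 bases before its start, as TGACTCCGC. One of 3 Txnrd1 windows had a match 92 bases before its start. The Keap1 and Nqo1 windows held none of the 3. A match is a run of letters, and binding was not measured in this study.

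**Figure D1:**
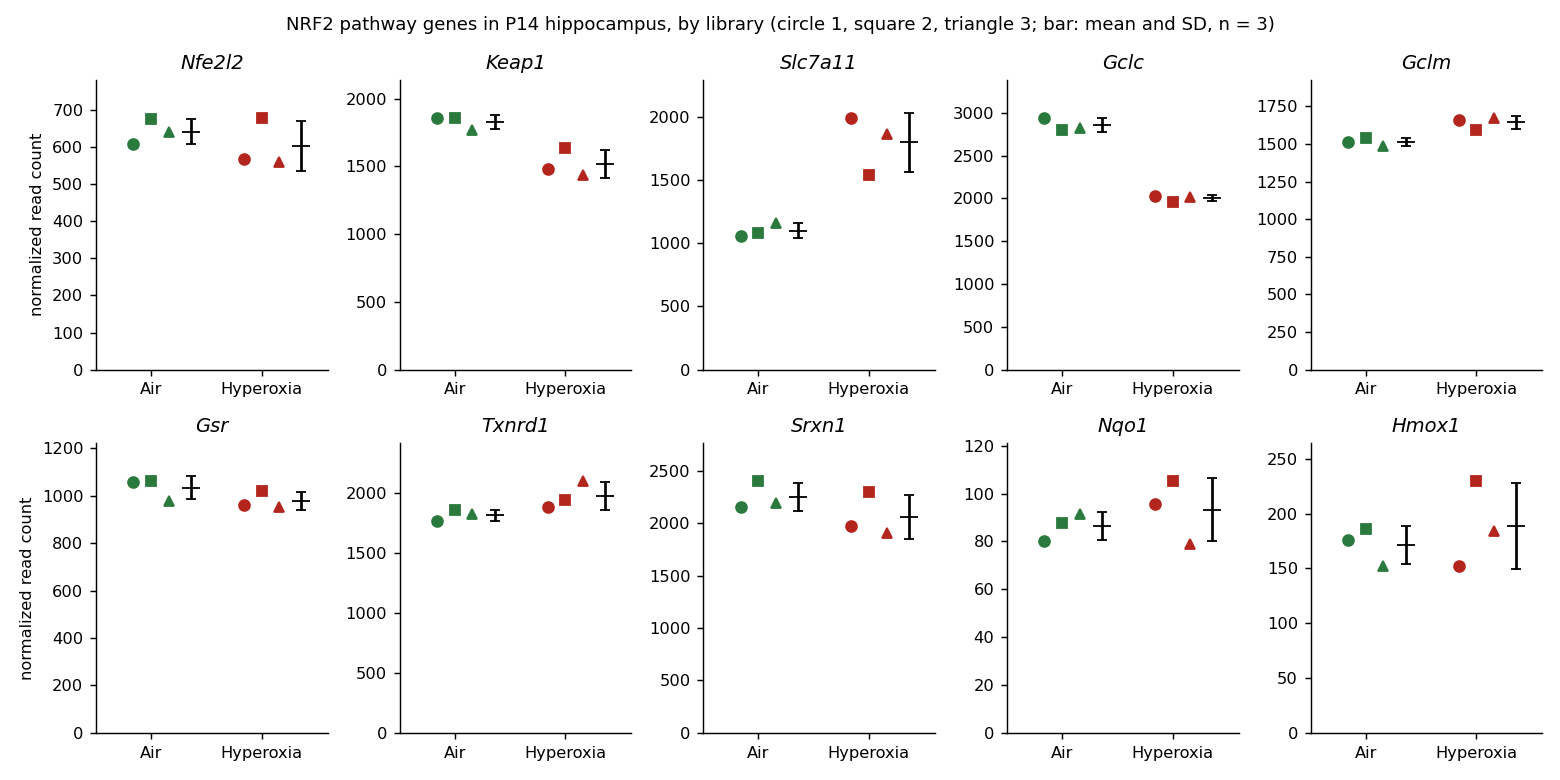
Normalized read counts (y axis, from 0) of the 10 NRF2 pathway genes in the air and hyperoxia libraries (x axis); each symbol is 1 library, and the black mark with its bar is the mean ± SD of 3. The groups are apart for Keap1, Slc7a11, Gclc, Gclm and Txnrd1, and hyperoxia library 2 (square) is the highest of its group in 6 of the 10 genes.

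The sensor and the factor were examined first. Nfe2l2 (ENSMUSG00000015839.6, chromosome 2, 75675513 to 75704641, minus strand) had normalized counts, in the order of library 1, 2 and 3, of 609.3, 675.7 and 641.7 for air and of 569.3, 680.4 and 559.8 for hyperoxia. Hyperoxia library 2 had the highest value of all and the other hyperoxia libraries the lowest, so the groups overlapped. Air mice averaged 642.2 ± 33.2 and hyperoxia mice 603.2 ± 67.1 (SD, n = 3 each). This gave a log2 difference of -0.09 (standard error 0.10, 95% interval -0.32 to 0.13, limma adjusted p = 0.497), and none of 16 other settings called it.

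Keap1 (ENSMUSG00000003308.15, chromosome 9, 21229730 to 21239361, minus strand), which encodes the cysteine-rich repressor, had 1861, 1858 and 1769 normalized reads in the air libraries and 1483, 1633 and 1436 in the hyperoxia libraries. Every hyperoxia library lay below every air library. The mean fell by 17.1%, from 1829 ± 52.3 to 1517 ± 102.5 (SD, n = 3 each). The log2 difference was -0.27 (standard error 0.076, 95% interval -0.44 to -0.10, limma adjusted p = 0.0237). The sign held in all 16 other settings, from -0.33 to -0.20, but 6 of them ended the call: limma without its variance trend, and leaving out air library 1, 2 or 3 or hyperoxia library 1 or 3, with limma adjusted p from 0.057 to 0.097 (0.0021 to 0.097 over all 16). Exons of Keap1 overlap Gm16754 on the other strand, whose counts were 51.8, 51.9 and 68.8 in air and 52.2, 38.5 and 51.2 in hyperoxia.

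The supply of glutathione starts with cystine. Slc7a11 (ENSMUSG00000027737.10, chromosome 3, 49892526 to 50443614, minus strand) encodes xCT, the chain of the cystine and glutamate exchanger that carries the substrate. Its normalized counts were 1055, 1077 and 1162 in air and 1992, 1539 and 1862 in hyperoxia. The lowest hyperoxia library was above the highest air library, and hyperoxia library 2 was the lowest of its group. The mean rose from 1098 ± 56.8 to 1798 ± 233.6 (SD, n = 3 each), a log2 difference of 0.70 (standard error 0.102, 95% interval 0.48 to 0.93, limma adjusted p = 0.00156). The call held in all 16 other settings. Taking out the dependence on length and GC content within each library (the length and GC trend) gave the smallest value, 0.35 (limma adjusted p = 0.0043). The adjusted p over the 16 ran from 1.6e-08 (DESeq2 Wald test) to 0.014 (limma). Leaving out 1 library at a time gave log2 differences of 0.63 to 0.81. Among the 2643 genes called higher, Slc7a11 ranked 815 by size of the difference.

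Gclc (ENSMUSG00000032350.9, chromosome 9, 77754535 to 77794485, plus strand) encodes the catalytic subunit of glutamate-cysteine ligase, the rate-limiting enzyme of glutathione synthesis. It had 2944, 2795 and 2823 normalized reads in the air libraries and 2023, 1959 and 2014 in the hyperoxia libraries, the narrowest hyperoxia group of the members relative to its mean. Every hyperoxia library lay well below every air library, and the mean went from 2854 ± 79.0 to 1999 ± 35.1 (SD, n = 3 each), a log2 difference of -0.51 (standard error 0.065, 95% interval -0.66 to -0.37, limma adjusted p = 0.00098). It passed in all 16 other settings, with values from -0.54 to -0.49. Gclc ranked 1218 by size among the 2782 genes called lower.

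Gclm (ENSMUSG00000028124.15, chromosome 3, 122245557 to 122270732, plus strand) encodes the modifier subunit of the same ligase, and its values moved the other way. It had 1515, 1539 and 1484 normalized reads in air and 1657, 1596 and 1676 in hyperoxia. All 3 hyperoxia libraries were above all 3 air libraries, by a small margin. Their log2 difference, 0.12 (standard error 0.067, 95% interval -0.03 to 0.27, limma adjusted p = 0.207), did not pass, and removing the length and GC trend turned its sign (-0.09, limma adjusted p = 0.33, range over the 16 settings 0.092 to 0.41). Its exons overlap Gm17494 on the other strand and a pseudogene, Gm6061, on its own strand. Gm17494 had 203.4, 211.7 and 195.1 normalized reads in air and 138.8, 84.9 and 96.5 in hyperoxia. It passed the test as lower (log2 difference -0.95, limma adjusted p = 0.00441). Gm6061 has no counts in the data used here, and its part in the Gclm values was not tested.

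The ratio of Gclm to Gclc within each library sets both subunits side by side on normalized counts, not corrected for length. It was 0.515, 0.55 and 0.525 in the air libraries and 0.819, 0.815 and 0.832 in the hyperoxia libraries. The groups did not overlap, with a mean of 0.53 ± 0.0183 in air and 0.822 ± 0.00883 in hyperoxia (SD, n = 3 each), a log2 difference of 0.63. An exact two-sided permutation test gave p = 0.1, which is the smallest p that 3 against 3 can give. The ratio of Nfe2l2 to Keap1 was 0.327, 0.364 and 0.363 in air and 0.384, 0.417 and 0.39 in hyperoxia, also without overlap (log2 difference 0.18, exact two-sided permutation p = 0.1). Of the genes in that ratio, Keap1 passed the test across all genes and Nfe2l2 did not. Removing the length and GC trend gave p = 0.3 for it by the same exact permutation test.

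**Figure D2:**
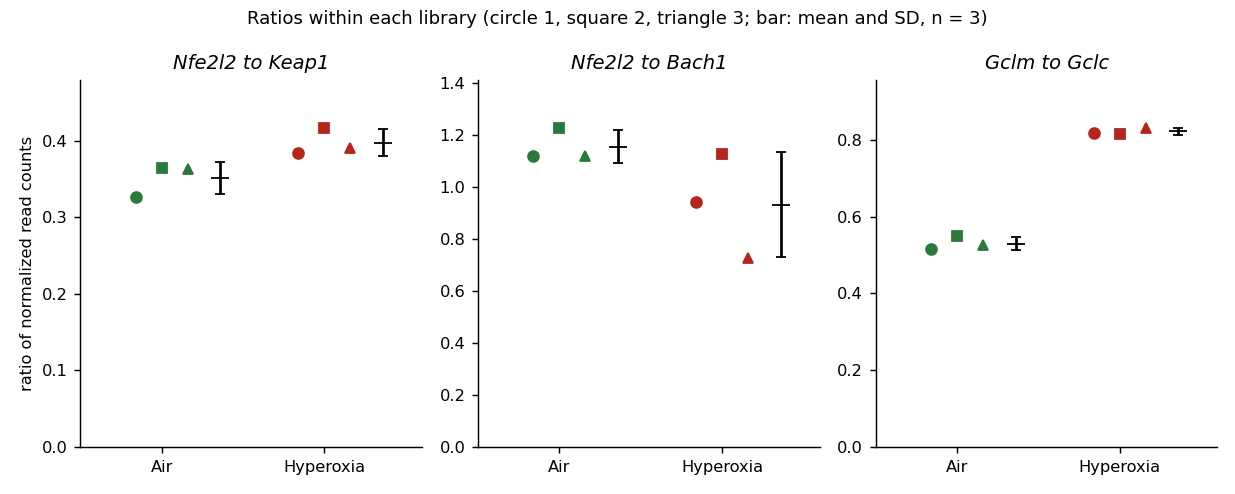
Ratios of normalized read counts within each library (y axes, from 0) for Nfe2l2 to Keap1, Nfe2l2 to Bach1 and Gclm to Gclc in the air and hyperoxia groups (x axis); symbols are libraries, and bars are mean ± SD of 3. The Gclm to Gclc ratio goes from 0.53 to 0.822 with no overlap, while the Nfe2l2 to Bach1 ratio overlaps between the groups.

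Gsr (ENSMUSG00000031584.16, chromosome 8, 33652523 to 33698163, plus strand) encodes glutathione reductase, which returns oxidized glutathione to its reduced form. Its normalized counts were 1059, 1062 and 978.4 in air and 960, 1020 and 950.7 in hyperoxia. Hyperoxia library 2 lay within the air range and the other hyperoxia libraries just under it, with a log2 difference of -0.08 (standard error 0.077, 95% interval -0.25 to 0.09, limma adjusted p = 0.45).

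Thioredoxin and peroxiredoxin repair was covered by a pair of genes. Txnrd1 (ENSMUSG00000020250.10, chromosome 10, 82833951 to 82897712, plus strand) encodes the cytosolic thioredoxin reductase, a selenoprotein. It had 1767, 1857 and 1820 normalized reads in air and 1879, 1938 and 2100 in hyperoxia, so the groups were apart by a narrow gap. The log2 difference was 0.12 (standard error 0.072, 95% interval -0.04 to 0.28, limma adjusted p = 0.239), and no setting called it.

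Srxn1 (ENSMUSG00000032802.8, chromosome 2, 152105516 to 152111376, plus strand) encodes sulfiredoxin, which restores overoxidized peroxiredoxins. Its normalized counts were 2155, 2403 and 2189 in air and 1972, 2295 and 1906 in hyperoxia. Library 2 was the highest in each group, and hyperoxia library 2 lay inside the air range. The log2 difference was -0.13 (standard error 0.089, 95% interval -0.33 to 0.07, limma adjusted p = 0.287). Without hyperoxia library 2 it passed the test, at -0.21 (limma adjusted p = 0.028, range over the 16 settings 0.028 to 0.61).

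The quinone and heme enzymes had the lowest counts of the members. Nqo1 (ENSMUSG00000003849.8, chromosome 8, 107388225 to 107403206, minus strand), the quinone reductase often used as a readout of NRF2, had 80.0, 87.5 and 91.4 normalized reads in air and 95.5, 105.3 and 79.1 in hyperoxia. Hyperoxia library 3 was the lowest of the 6 and library 2 the highest. The log2 difference was 0.10 (standard error 0.16, 95% interval -0.26 to 0.46, limma adjusted p = 0.652). These values rest on 82 to 108 reads per library, and the interval spans both a rise and a fall.

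Hmox1 (ENSMUSG00000005413.8, chromosome 8, 75093621 to 75100589, plus strand) encodes heme oxygenase 1, which opens the heme ring. It had 176.1, 186.2 and 151.9 normalized reads in air and 152.0, 229.8 and 184.4 in hyperoxia, with overlap between the groups. The log2 difference was 0.12 (standard error 0.164, 95% interval -0.24 to 0.49, limma adjusted p = 0.598). Without hyperoxia library 2 it was -0.03 (limma adjusted p = 0.89, range over the 16 settings 0.17 to 0.90). Library 2 also had the most erythroid RNA in each group: the summed count of 7 erythroid genes was 1795.9, 2923.5 and 1821.3 in air and 2575.9, 4091.6 and 2648.5 in hyperoxia. The part of blood in the Hmox1 values was not tested.

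**Figure D3:**
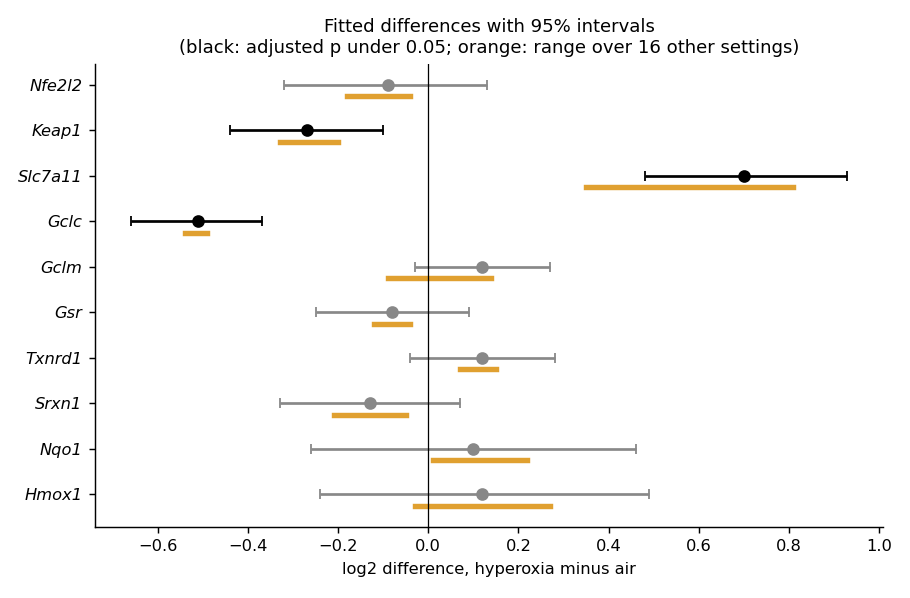
Log2 difference of hyperoxia minus air (x axis) for each of the 10 genes (y axis), with the 95% interval of the limma fit; black points passed an adjusted p under 0.05, and orange bars give the range of the estimate over 16 other settings. Slc7a11 lies above 0 and Gclc and Keap1 below it, and the intervals of the other 7 genes include 0.

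Of the 10 genes, 5 had groups that did not overlap (Keap1, Gclc, Gclm, Txnrd1 and Slc7a11), against 46.1% of all genes tested. Hyperoxia library 2 was the highest of its group in 6 members (Nfe2l2, Keap1, Nqo1, Hmox1, Srxn1 and Gsr) and the lowest in 3 (Gclc, Gclm and Slc7a11). Without it, 4 members were called, 1 higher and 3 lower, against 21.6% and 22.0% of all genes tested (7756 genes in place of 5425).

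Per length, Srxn1 and Gclc had the highest levels in air, at 797 ± 47.6 and 758 ± 21 normalized reads per kb of exon (SD, n = 3), and their ranges overlapped. Keap1 at 390 ± 11.2 and Gsr at 375 ± 17.3 per kb came next and also overlapped. Txnrd1 at 256 ± 6.41 and Gclm at 240 ± 4.4 per kb were close, with ranges just apart. Nfe2l2 had 169 ± 8.74 and Hmox1 97.9 ± 10.1 per kb. Slc7a11 at 78.9 ± 4.08 and Nqo1 at 55.6 ± 3.71 per kb were the lowest, and no further neighbours overlapped in air. In hyperoxia, Slc7a11 at 129 ± 16.8 per kb stood above Hmox1 at 108 ± 22.3, with overlapping ranges, and Gclc at 531 ± 9.31 was below Srxn1 at 730 ± 73.7 without overlap. Gsr at 355 ± 13.7 per kb then stood above Keap1 at 323 ± 21.8, again with overlapping ranges. The order depends on the length used: per kb of the longest transcript, the air means were 834 for Gclc, 800 for Srxn1, 501 for Txnrd1 and 387 for Gsr, so Gclc came before Srxn1 and Txnrd1 before Gsr, and Slc7a11 at 119 came before Hmox1 at 109.

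**Figure D4:**
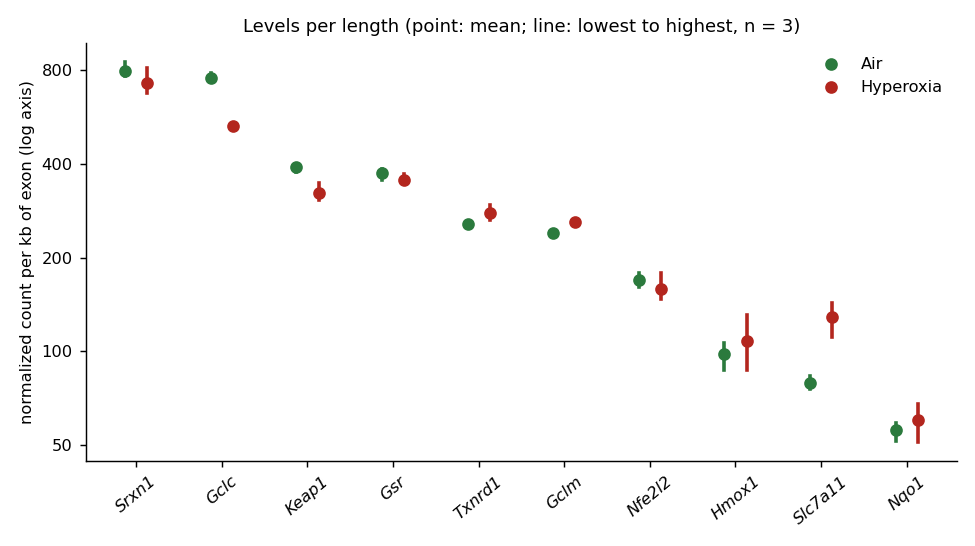
Normalized read count per kb of exon (y axis, log scale) of the 10 genes, ordered by their mean in air (x axis); points are means of 3 libraries and lines run from the lowest to the highest library. Gclc lies lower and Slc7a11 higher in hyperoxia, and Nqo1 has the lowest mean in both groups.

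Proteins that act on NRF2 were covered by a list of 12 genes, all tested. Of these, 4 rose (Maff, Bach2, Dpp3 and Gsk3b), against the 14.9% called higher among all genes, and limma called 0 lower. At an unadjusted p under 0.05, limma gave 6 higher and 0 lower, against 21.1% and 21.7% of all genes. By adjusted p, edgeR called 4 higher and 0 lower, against 15.6% and 15.3% of all genes, and DESeq2 5 higher and 0 lower, against 16.5% and 15.1%. The median log2 difference of the list was 0.20. Without hyperoxia library 2, 7 were called higher and 2 lower, against 21.6% and 22.0% of all genes. Leaving out air library 1, air library 2 or hyperoxia library 1 left 2 called, against 17.1%, 17.4% and 19.0% of all genes in either direction.

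Maff, a small MAF partner of NRF2, had 43.3, 52.9 and 47.2 normalized reads in air and 79.6, 127.9 and 104.2 in hyperoxia. The lowest hyperoxia library was above every air library, and the log2 difference was 1.08 (standard error 0.203, limma adjusted p = 0.00442). Dpp3, which encodes a peptidase that competes with NRF2 for KEAP1, had 991.7, 964.7 and 1011 in air and 1298, 1362 and 1229 in hyperoxia, again with no overlap (log2 difference 0.39, standard error 0.075, limma adjusted p = 0.00487). Both passed in all 16 other settings.

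Bach2, a repressor related to BACH1, had 477.5, 514.9 and 525.6 normalized reads in air and 696.6, 580.8 and 753.8 in hyperoxia (log2 difference 0.41, limma adjusted p = 0.0189). The call ended without air library 1, air library 2 or hyperoxia library 1, and with the length and GC trend removed (0.17, limma adjusted p = 0.11, range over the 16 settings 0.00082 to 0.11). Gsk3b, a kinase that marks NRF2 for breakdown apart from KEAP1, had 8633, 8086 and 8161 in air and 10696, 8880 and 10965 in hyperoxia (log2 difference 0.29, limma adjusted p = 0.0359). With the length and GC trend removed its difference was 0.03 (limma adjusted p = 0.75, range over the 16 settings 0.00051 to 0.75), and the call also ended without limma's variance trend and without any 1 library other than hyperoxia library 2.

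Bach1, which competes with NRF2 for the same DNA sites, had 542.4, 548.5 and 571.8 normalized reads in air and 604.6, 604.6 and 771.2 in hyperoxia. All hyperoxia values were above the air values, and the log2 difference of 0.24 did not pass (limma adjusted p = 0.118). The ratio of Nfe2l2 to Bach1 was 1.12, 1.23 and 1.12 in air and 0.942, 1.13 and 0.726 in hyperoxia, with overlap in library 2 (log2 difference -0.34, exact two-sided permutation p = 0.3).

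Other genes known as NRF2 targets made a list of 25, of which 24 were tested and Gpx2 was under the minimum mean. Of the 24, 5 rose and 3 fell, against 14.9% and 15.6% of all genes, and the median log2 difference was 0.09. Abcc1, a pump that exports glutathione conjugates, had 555.6, 504.7 and 545.1 normalized reads in air and 840.6, 786.8 and 930.5 in hyperoxia, with no overlap (log2 difference 0.67, standard error 0.092, limma adjusted p = 0.00125). Idh1, a cytosolic source of NADPH, had 1854, 2039 and 1947 in air and 2236, 2762 and 2662 in hyperoxia (log2 difference 0.39, limma adjusted p = 0.0118). Prdx1, a peroxiredoxin, had 2422, 2748 and 2487 in air and 2917, 3452 and 3203 in hyperoxia (log2 difference 0.32, limma adjusted p = 0.019).

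Those that fell were Ephx1, Gss and Cbr1. Ephx1, the microsomal epoxide hydrolase, had 978.5, 1017 and 945.5 normalized reads in air and 645.3, 816.3 and 640.9 in hyperoxia (log2 difference -0.49, standard error 0.105, limma adjusted p = 0.00764). Gss, the glutathione synthetase that acts after the GCLC and GCLM ligase, had 673.4, 791.7 and 680.7 in air and 550.7, 555.9 and 510.6 in hyperoxia (log2 difference -0.40, limma adjusted p = 0.0109). Cbr1, a carbonyl reductase, had 1886, 2006 and 1822 in air and 1459, 1684 and 1507 in hyperoxia (log2 difference -0.30, limma adjusted p = 0.0205). In none of these did a hyperoxia library reach the air range.

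Abcc1 and Ephx1 passed in all 16 other settings. The call ended without air library 1 for Idh1, without air library 2 for Gss, without air library 1 or 3 and without the variance trend for Prdx1, and without air library 1, air library 2, hyperoxia library 1 or the variance trend for Cbr1. Without hyperoxia library 2, 5 of the list were called higher and 8 lower, in a setting that called 21.6% of all genes higher and 22.0% lower.

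**Figure D5:**
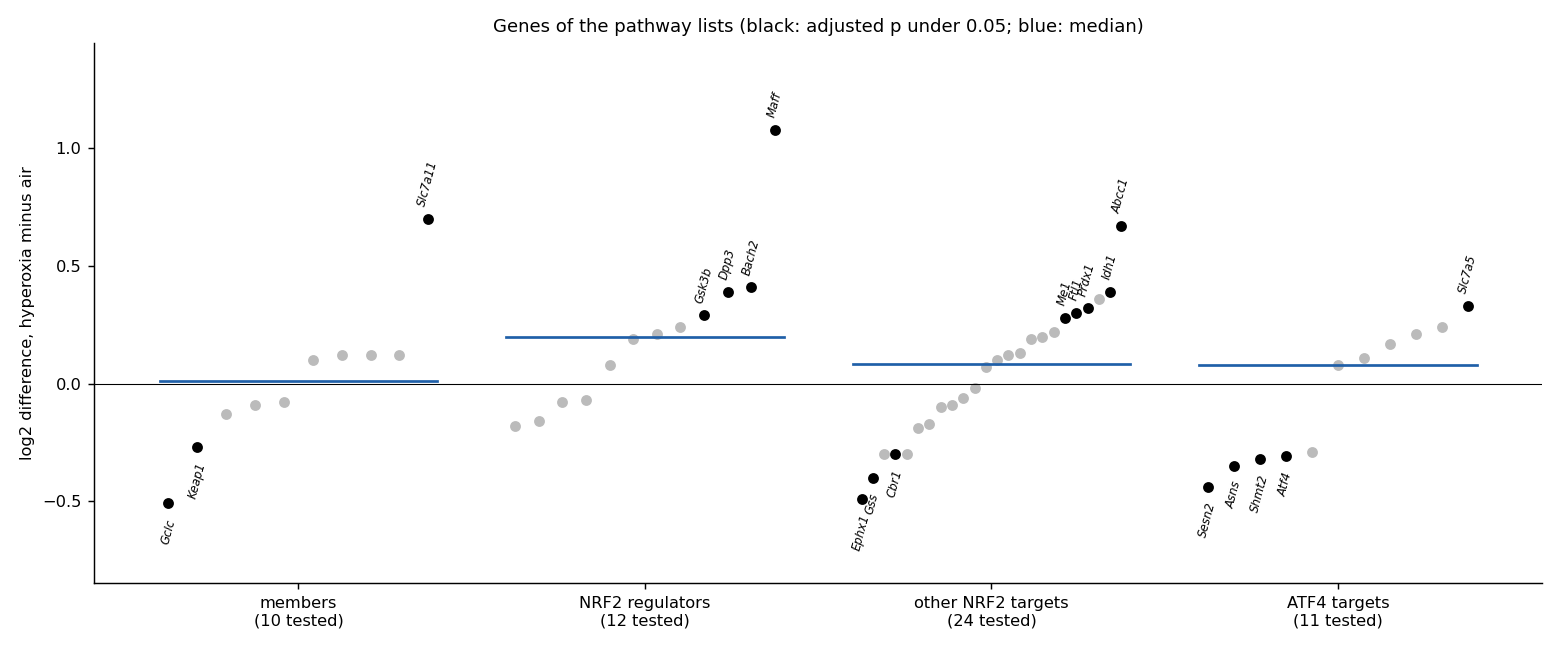
Log2 difference of hyperoxia minus air (y axis) for each tested gene of the members, the NRF2 regulators, the other NRF2 targets and the ATF4 targets (x axis); black points with names passed an adjusted p under 0.05 and blue lines are medians. Called genes lie on both sides of 0 in every list but the regulators, whose 4 called genes all lie above it. The list of ATF4 targets holds Atf4 itself.

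Slc7a11 is also read by ATF4, the factor of the amino acid and stress response, so 12 ATF4 targets and ATF4-pathway genes were listed, of which 11 were tested and Trib3 was under the minimum mean. Of the 11, 1 rose and 4 fell, Atf4 itself among the 4, against 14.9% and 15.6% of all genes. The median log2 difference was 0.08. Slc7a5, the large neutral amino acid transporter, rose from 3790, 3721 and 3967 normalized reads in air to 4795, 5124 and 4484 in hyperoxia (log2 difference 0.33, limma adjusted p = 0.00957). Sesn2, a stress-induced regulator of mTORC1, fell from 963.4, 921.9 and 954.8 to 670.0, 775.5 and 650.5 (log2 difference -0.44, limma adjusted p = 0.00596). Asns, the asparagine synthetase (log2 difference -0.35, limma adjusted p = 0.0179), and Shmt2, a mitochondrial enzyme of serine breakdown (-0.32, limma adjusted p = 0.0359), were also lower. Sesn2 passed in all 16 other settings. The call for Slc7a5 ended without air library 2, that for Asns without air library 1 or 2 or without the variance trend, and that for Shmt2 in 7 of 16 settings, each single library but hyperoxia library 2 among them.

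Atf4 and Slc3a2 were picked out after their values were seen. Atf4 itself had 4623, 4212 and 4185 normalized reads in air and 3360, 3982 and 3166 in hyperoxia (log2 difference -0.31, limma adjusted p = 0.0307, called in 9 of 16 other settings). Slc3a2, which encodes the heavy chain that pairs with xCT and with the Slc7a5 protein, had 5318, 5208 and 4881 in air and 5330, 6134 and 5230 in hyperoxia (log2 difference 0.11, limma adjusted p = 0.314). Slc7a11 and Atf4 differed in opposite directions, whichever way the headings run, and Slc3a2 did not pass the test. These are RNA levels and do not measure ATF4 activity. Whether ATF4 had a part in the Slc7a11 difference was not tested.

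The libraries held 30384052 to 38746972 reads on genes, and the members had from 82 reads (Nqo1) to 3126 (Gclc) in a library. Mitochondrial transcripts took 9.78% to 10.27% of reads in air and 7.53%, 9.89% and 6.98% in the hyperoxia libraries. Markers of hippocampal pyramidal and granule cells were present in every library, with a summed count of 56553 to 60565 in air and 41104, 35434 and 52926 in hyperoxia, and 4 of 8 passed the test as lower. The counts of markers called are to be read against the 14.9% of all genes called higher and the 15.6% called lower. For other cells, 4 of 10 astrocyte markers were higher and 2 lower (summed count 209250 to 219630 in air against 253410, 246550 and 264200), 6 of 7 of meninges and fibroblasts were higher (7934.9 to 9919.4 against 14548, 16117 and 10567), 4 of 7 of endothelial cells were higher and 1 lower (7676.7 to 7976 against 8825.4, 10145 and 9264.1), 4 of 7 of thalamus were higher (5306.7 to 5416.9 against 7579.1, 8589.7 and 7995.8), and 6 of 7 of oligodendrocytes were lower (216640 to 330780 against 146830, 179620 and 179150). The higher astrocyte sum rests largely on Slc1a2, with a mean of 104640 in air and 149380 in hyperoxia. The median log2 difference of the astrocyte list was 0.05. Microglia had 2 of 8 markers higher, and their summed count overlapped between the groups (12072 to 12378 against 12368, 13948 and 12333). General neuronal markers had 3 of 7 higher and 3 lower (187770 to 192070 against 201050, 200830 and 191970), and erythroid markers 1 of 7 higher and 1 lower. Of 7 choroid plexus markers 1 was higher, Aqp1 (17.0, 14.2 and 12.3 in air, 45.1, 34.0 and 63.7 in hyperoxia). The summed choroid plexus count was 558.66 to 1424 against 716.01, 493.62 and 8214.9. It was high in hyperoxia library 3, where Ttr, which was not called, had 7454. No listed marker was at 0 in all libraries. In whole tissue, fewer cells of a type, less RNA per cell and a different share of neighbouring tissue cannot be told apart. The part of these marker differences in the values of Slc7a11, Gclc and Keap1 was not tested.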

How the data were processed

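RNA from the left hippocampus of 3 air-exposed and 3 hyperoxia-exposed mice was sequenced from strand-specific polyA libraries, 1 library per mouse. STAR 2.5.3a, HTSeq, DESeq2 and FastQC are named in the submitters' processing notes. Neither the genome build nor the annotation or strand setting is given in the sources used here. The deposited signal is a normalized count, reads per gene scaled by the authors with a size factor for each library. Dividing each library by its smallest step gave whole reads for 100% of values within 0.01, so reads were recovered. A second deposited table holds the authors' own comparison (mean, log2 fold change, standard error, Wald statistic, p-value and adjusted p-value). No value here was taken from that table, and only its signs were read. Oil stands in its name beside either group, which the methods do not explain, and its signs run opposite to those of the columns used here.

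Genes with a mean of at least 10 were tested with limma 3.58.1 (R 4.3.3, mean-variance trend) on log2 of the value plus 1, for hyperoxia minus air. P-values were adjusted over 17778 genes (Benjamini-Hochberg). Fold changes on this scale understate the change of low genes. The 16 alternatives were TMM scaling, quantile normalization, a pseudocount of 0.5 or 5, a minimum mean of 50 or none, limma without the trend, edgeR 4.0.16 (quasi-likelihood test) and DESeq2 1.42.0 (Wald test) on recovered reads, removal of length and GC trends (mgcv 1.9.3), and each of 6 libraries left out. Ratios were tested by an exact permutation test over libraries. The limma and edgeR fits were tried on simulated counts with the same dispersion for every gene and library. That trial does not show how often these tests err when replicates differ as unevenly as they do here. Column numbers do not name animals, so no samples were paired. Replicates differed by more than counting noise. The chi-square per gene was 6.54 to 10.52 between air libraries and 15.12 between hyperoxia libraries 1 and 3. For the pairs with hyperoxia library 2 it was 31.44 (with library 1) and 47.21 (with library 3).

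The members, the lists, and the rule for named genes were chosen with earlier results of these data known. The rule named all 10 members, every called NRF2 regulator, and up to 3 called genes with the largest rise and 3 with the largest fall among other NRF2 targets and among ATF4 targets. Positions and lengths came from GENCODE M21 on GRCm38, which held 99.7% of the gene identifiers and the same version for 84.85%, the members included. Promoters came from RefSeq GRCm38.p6.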

Additional observations from a re-analysis of the deposited data

How the results depend on the processing

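Over the 16 alternatives, the log2 differences of the members and named genes stayed on the same side of 0 and of the threshold in 344 cases, lost the call in 37, gained it in 1 and turned sign in 2. Those 2 were Hmox1 without hyperoxia library 2 (-0.029, against 0.268 without hyperoxia library 1) and Gclm with the length and GC trend removed (-0.093), and neither passed the test in any setting. Slc7a11 and Gclc were called in all 16. The count of members called was 2 to 4 when single libraries were left out, 2 with limma without its variance trend, and 3 in the other settings. The count of NRF2 regulators called was 4, and 2 to 9 with single libraries left out. It was 3 with limma without its variance trend, 3 with the length and GC trend removed, and 5 with DESeq2. The count of other NRF2 targets called was 8, and 3 to 13 with single libraries left out, and 4 with limma without its variance trend. It was 7 with no minimum mean, 9 with DESeq2 and 11 with the length and GC trend removed. Over all genes, 5425 were called, and 3048 (without air library 1) to 7756 (without hyperoxia library 2) with single libraries left out. Fewer libraries give the test less to work with, and why hyperoxia library 2 raises the counts when left out was not tested. No paired analysis was possible because the column numbers do not name animals. Outlying single libraries were not tested for with 3 per group. Nqo1 and Hmox1 had the fewest reads of the members and the widest 95% intervals.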
